A study of Drosophila melanogaster with 4 samples.

Results

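The compact regions of H3K9acS10P enrichment along the interior of chromosome arm 2L of Drosophila melanogaster were chosen from the series-level list by position and width alone. A region was a member when its midpoint lay past the first 1 Mb of 2L and no further than base 21011544, in FlyBase r5 coordinates, and it was under 6000 bp wide. These limits leave out 1 Mb at the telomere-facing end and 2 Mb at the centromere-facing end. Of the 15374 regions of the whole list, 2543 lay on 2L and 2107 were members, which is 13.7% of the list and 82.9% of the arm. Their number, positions, widths and scores are therefore descriptions of the choice and carry no test.

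The material was whole wild-type embryos of the strain Oregon-R (Oregon-R-modENCODE), aged 14 to 16 h, with no treatment and no mutant group. The labels give 2 ChIP samples made with 1 lot of the antibody Ab12181 and 2 input samples, 1 for each ChIP sample. Region lists of the 2 ChIP samples and 1 list of the series as a whole were used, and no list of an input sample was analysed here. Whole embryos hold every tissue of the animal, and the labels name neither sex nor cell type. The labels do not say whether separate embryo collections were used, and the replicates may therefore differ for technical reasons only. The lists give a first base, a last base and a score for each region but no read counts, so the depth of the libraries is unknown.

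The antibody is named for an H3 tail that carries both acetylation at a lysine and phosphorylation at the serine beside it. Acetylation at that lysine is a mark of active promoters and is known to be laid down by acetyltransferases of the Gcn5 type. Phosphorylation of the serine is known from condensed mitotic chromosomes, where Aurora B kinase makes it, and from interphase chromatin of the fly, where the tandem kinase JIL-1 makes it at active genes and keeps silencing methylation of the same lysine from spreading. Arm 2L is an autosomal arm whose interior is mostly gene-rich euchromatin. Regions are given by position and not by gene.

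Most compact regions were under 2 kb wide. Widths ran from 1001 to 5996 bp with a median of 1678 bp, and 64.3% of the members were at or under 2000 bp. The members covered 4.31 Mb, or 21.5% of the 20.0 Mb interior, at an average of 1 region per 9.50 kb. Another 122 regions of the interior were at or over the width limit and covered 5.30% of its bases. The authors' score, a number per region with its scale not given in the sources used here, had a median of 0.454 among members and ran from 0.0215 to 2.34. It was 0.740 at the median of the 122 wide regions. Width and score ranked the members only loosely alike, with a Spearman rho of 0.36 across 2107 regions of 1 list. The narrowest members did not score lowest. In 5 classes of width, from narrowest to widest, the median score was 0.461, 0.402, 0.403, 0.480 and 0.574. The widest members were 2L:20671777-20677772, 2L:20659104-20665088 and 2L:8363035-8369011, at 5996, 5985 and 5977 bp with scores of 0.879, 0.679 and 0.740. Just outside the limit lay 2L:19521107-19527112, 2L:2157678-2163699 and 2L:16297060-16303081, at 6006, 6022 and 6022 bp with scores of 0.563, 0.645 and 0.673. All 6 overlapped both replicate lists.

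Compact regions occurred along the whole interior, but their local density differed widely between windows of 500 kb. Over the 40 full windows of 500 kb, the density averaged 105 ± 32.4 members per Mb (SD over windows, which are not replicates of embryos). The lowest window held 21 members, the median 49.5 and the highest 85. Members covered between 7.67% and 37.2% of a window's bases. At a finer scale, each of the 200 windows of 100 kb held at least 1 member and the highest held 24, and the 65 fullest of them together held 50% of the members.

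The densest stretch lay toward the centromere-facing end. The window 2L:18500001-19000000 held 85 members, and 18 regions of replicate 1 and 66 of replicate 2. Its neighbour 2L:19000001-19500000 held 84 members, with 29 and 68 replicate regions. Next came 2L:6500001-7000000, with 80 members, 22 regions of replicate 1 and 62 of replicate 2. In all 3 windows both replicates were above their own median window, which held 16 regions in replicate 1 and 38.5 in replicate 2.

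The windows with fewest members were also thinly filled in both replicates. The window 2L:15500001-16000000 held 21 members, 7 regions of replicate 1 and 16 of replicate 2. The window 2L:17500001-18000000 held 26 members, with 3 and 14 replicate regions, and 2L:9000001-9500000 held 27 members, with 9 and 16. The thin window at 17.5 Mb and the densest one at 18.5 Mb were thus separated by a single window, which held 28 members. The longest stretch without a series-level region of any width was 2L:17804127-17953525, of 149 kb, followed by 2L:9011693-9125248, of 114 kb, and 2L:17040938-17132749, of 91.8 kb. None of these 3 stretches held a region of either replicate.

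**Figure D1:**
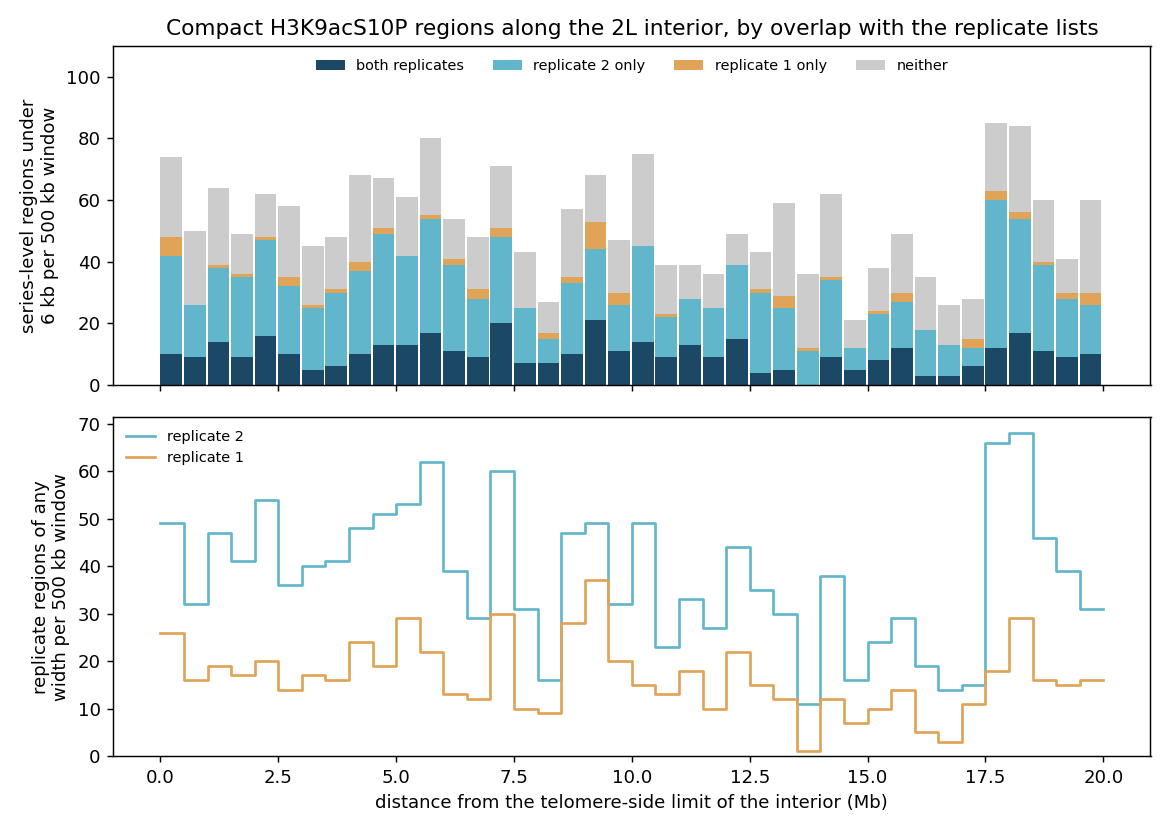
Upper panel, number of compact series-level regions in each full 500 kb window of the 2L interior (y axis) against distance in Mb from its telomere-side limit (x axis), stacked by overlap with the replicate lists. Lower panel, number of regions of any width in each replicate list in the same windows. Counts of members run from 21 to 85, and replicate 2 lies above replicate 1 in all 40 windows. The replicates can step in opposite directions, as from 20 to 15 in replicate 1 and from 32 to 49 in replicate 2 at 10 Mb along the axis.

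In 4 blocks of 5 Mb, from the telomere-facing side onward, the members numbered 585, 556, 459 and 506. Windows within a block spread widely, at 58.5 ± 10.0, 55.6 ± 15.4, 45.9 ± 15.7 and 50.6 ± 21.3 members per window (SD over 10 windows each), and whether the blocks differed was not tested. Replicate 1 held 188, 210, 125 and 137 regions in these blocks and replicate 2 held 439, 418, 306 and 351, so both held fewer in the last 2 blocks than in the first 2. The wide regions numbered 46, 32, 21 and 23 in the same order. The median member score changed little, at 0.453, 0.459, 0.453 and 0.450. Across the 40 windows, the number of members had a Spearman rho of 0.11 with the median member score and 0.33 with the median member width, and 0.15 with the number in the next window. The number of members in a window thus told little of how high they scored.

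The replicates had similar landscapes along the arm with different numbers of calls. Replicate 1 held 660 regions of any width in the interior and replicate 2 held 1514, a mean of 1087 ± 604 (SD, n = 2) and a ratio of 2.29. Across the 40 windows the region numbers of both lists were ranked alike, with a Spearman rho of 0.87, a description over windows that share the sequence and the antibody lot. The ratio of replicate 2 to replicate 1 was 2.41 at the median window and lay between 1.98 and 2.73 between the lower and upper quartile windows. It was lowest, at 1.32, in 2L:10000001-10500000, which held 37 regions of replicate 1, its highest count, against 49 of replicate 2. It was highest, at 11.0, in 2L:14500001-15000000, with 1 and 11 regions. Both windows were singled out after their values were seen.

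**Figure D2:**
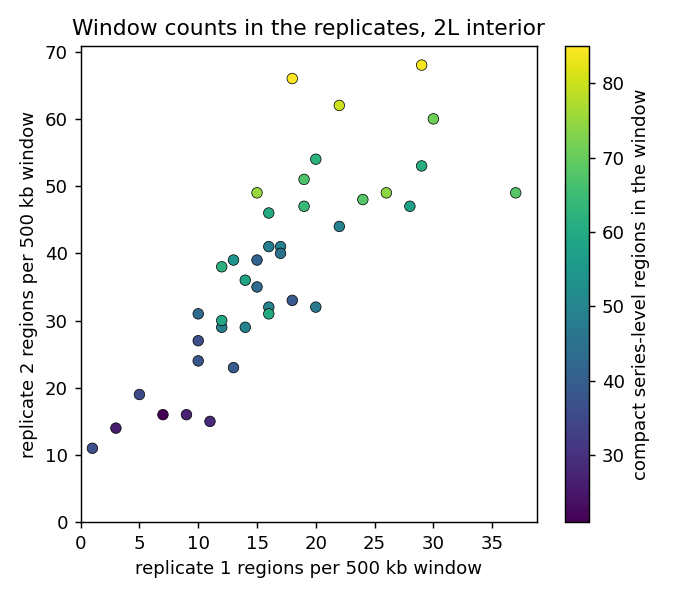
Number of replicate 2 regions (y axis) against number of replicate 1 regions (x axis) in the 40 full 500 kb windows of the 2L interior, coloured by the number of compact series-level regions. Windows with more regions in one replicate tended to have more in the other (Spearman rho 0.87), from 1 and 11 in the thinnest to 29 and 68 in one of the fullest. The ratio between the replicates varied, as 2L:18500001-19000000 had 18 in replicate 1 and 66 in replicate 2, and 2L:10000001-10500000 had 37 and 49.

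Most compact regions were seen in replicate 2 alone or in neither replicate. Overlap here means at least 1 shared bp. Replicate 1 overlapped 474 members, or 22.5% (95% Wilson interval 20.8 to 24.3%), where the background over all 14490 series-level regions under 6000 bp was 22.2%. Replicate 2 overlapped 1286 members, or 61.0% (58.9 to 63.1%), against a background of 60.2%. The mean over the replicates was 41.8% ± 27.3 (SD, n = 2). Both lists overlapped 402 members, or 19.1% (17.5 to 20.8%), against 18.5%, and neither overlapped 749, or 35.5% (33.5 to 37.6%), against 36.2%. Each share on 2L was close to its background and is therefore no feature of this arm. Replicate 2 alone accounted for 884 members and replicate 1 alone for 72. Of the members that replicate 1 overlapped, 84.8% were also overlapped by replicate 2, whereas 31.3% of those under replicate 2 were also under replicate 1. The Wilson intervals treat regions as independent, which neighbouring regions are not, and 40 regions of replicate 2 and 5 of replicate 1 each overlapped 2 members. The series-level list is not independent of the replicates, since it describes the same series.

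Width separated supported from unsupported compact regions more evenly than score did. With the members divided into 5 classes of width, the share overlapping both replicates was 0% in each of the 2 narrowest classes, then 4.99%, 28.7% and, in the widest, 61.6%. A count of 0 of 422 regions allows a share of up to 0.902% by the Wilson interval. The share overlapping neither fell from 84.4% in the narrowest class through 60.6%, 24.0% and 7.13% to 1.66% in the widest. With 5 classes of score instead, the share in both replicates was 5.21%, 4.99%, 6.89% and 10.2% in the lower 4 classes and 68.0% in the highest (95% Wilson interval 63.4 to 72.3%). The share in both replicates thus stayed low up to a score of 0.538 and was much higher in the class above. In the class just below that score the 95% Wilson interval was 7.67 to 13.5%. It overlapped those of the lowest class (3.47 to 7.77%) and the third (4.84 to 9.72%), but not that of the second (3.29 to 7.50%). The share overlapping neither was 38.6%, 42.3%, 41.1%, 45.6% and 10.2% from the lowest class of score to the highest. Replicate 2 overlapped between 53.2% and 55.6% of the members in the lower 4 classes of score and 88.9% in the highest.

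**Figure D3:**
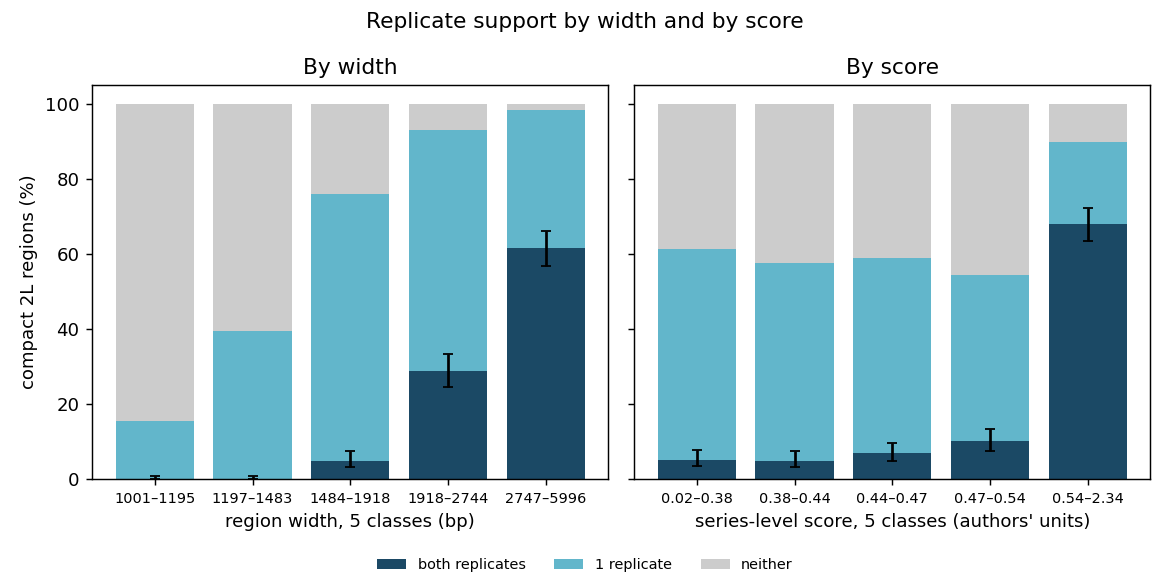
Share of compact 2L regions (y axis, %) overlapping both replicate lists, 1 of them or neither, in 5 classes of region width (left, bp) and 5 classes of series-level score (right, authors' units), each of 421 or 422 regions. Bars on the dark part are 95% Wilson intervals. The share in both lists climbs from 0% to 61.6% across width classes, and by score it stays at or under 10.2% until the highest class, at 68.0%.

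Neither quantity alone marked the supported regions. With 3 classes of each, 321 of the 472 members in the highest class of score and the widest class overlapped both replicates, or 68.0% (63.7 to 72.1%). In the same class of score, 0 of the 157 members in the narrowest class did, which allows a share of up to 2.39% by the Wilson interval, and 136 of them, or 86.6%, overlapped neither. In the widest class, the share in both replicates was 9.09% at the lowest scores and 16.9% at the middle ones. Wide regions meet a 1 bp overlap more readily by chance, and the part of this in the result was not tested.

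A difference in the smallest width between the lists lay beside this pattern. The narrowest series-level region was 1001 bp, and 35 members had that width, whereas no region of either replicate list was under 1301 bp. Of the 587 members narrower than that, 0 overlapped both replicates and 479, or 81.6%, overlapped neither. Among the 1520 wider members, 402, or 26.4%, overlapped both and 270, or 17.8%, overlapped neither. The narrowest member overlapping both was 1602 bp wide, so none between 1301 bp and that width did. The median score was 0.454 in both the narrow and the wider members, and the wider ones spread further. The lower and upper quartiles were 0.413 and 0.488 in the narrow members and 0.397 and 0.539 in the wider ones. The part of the lists' smallest widths in the support of narrow regions was not tested.

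Most regions without support lay more than 2 kb from any replicate region. For the 749 members in neither list, the nearest region of replicate 2 lay at a median distance of 3946 bp and that of replicate 1 at 14647 bp. A replicate 2 region lay within 2 kb of 247 of them, or 33.0% (29.7 to 36.4%), and a replicate 1 region within 2 kb of 83, or 11.1%. Members in replicate 1 alone lay closer to the other list: for those 72, the nearest replicate 2 region was 2125 bp away at the median, and 34 had one within 2 kb. Conversely, few replicate regions of the interior lacked a series-level partner. Among those under 6000 bp, 642 of 656 in replicate 1 and 1387 of 1439 in replicate 2 overlapped a series-level region of some width, or 97.9% and 96.4%. The 14 and 52 left over were narrow, with median widths of 1473.5 and 1397.5 bp.

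Where a replicate supported a compact region, replicate 2 gave nearly the same extent and replicate 1 a narrower part. Replicate 2 covered 95.5% of the member at the median of 1286 overlapped members, and replicate 1 covered 74.0% at the median of 474. These medians are not over the same members. Of the 474, 402 were in both lists, with a median width of 3224.5 bp. Of the 1286, 884 were in replicate 2 alone, with a median width of 1844 bp. Nearly all overlapped members were matched by a single region, 96.6% in replicate 2 and 97.7% in replicate 1, and no member held more than 2. Taking only members matched 1 to 1, 1161 in replicate 2 and 454 in replicate 1, the replicate region had a median of 0.969 of the member's width in replicate 2 and 0.747 in replicate 1. Its start lay 14 bp inside the member's start in replicate 2 and 224 bp inside in replicate 1, at the median. Its end differed by -15 bp and -217.5 bp, again inside the member. Midpoints were 71.5 bp apart in replicate 2 and 208 bp apart in replicate 1 at the median. Both edges fell within 100 bp of the member's edges for 392 of 1161 regions in replicate 2 and for 33 of 454 in replicate 1, and 35.4% and 11.5% of the replicate regions were wider than the member. The 1-to-1 members also differed between the replicates, and extents were not compared over the members in both lists alone.

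**Figure D4:**
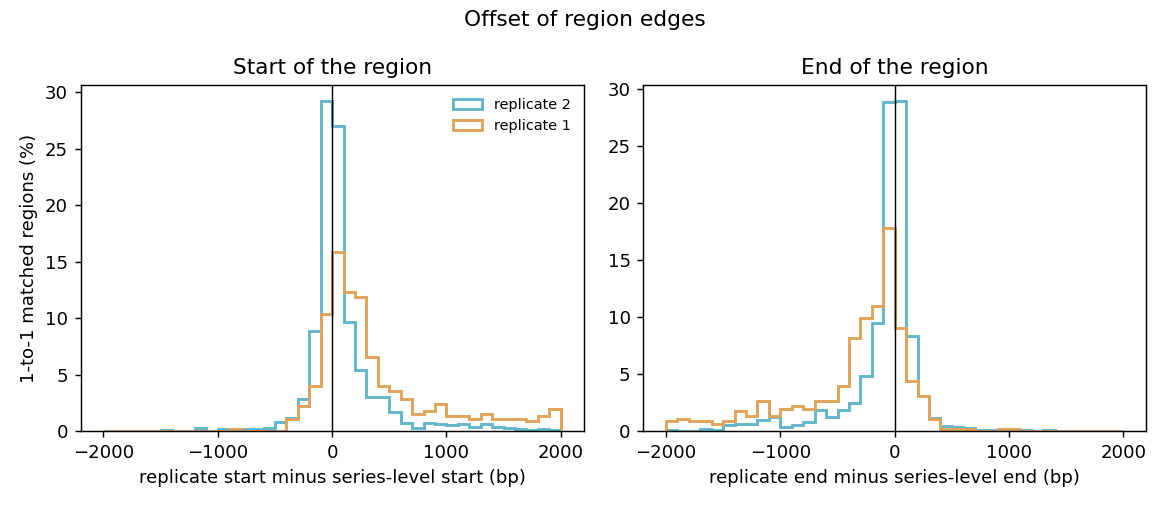
Distribution of the distance in bp from the start (left) and the end (right) of a compact series-level region to the same edge of its 1-to-1 partner in replicate 2 (1161 pairs) and replicate 1 (454 pairs), in % of pairs. The axis spans 2 kb either way, which holds 93.4% of the replicate 1 pairs at each edge, and 99.3% of the replicate 2 pairs at the start and 99.6% at the end. Replicate 2 peaks at 0, and replicate 1 is shifted inward, with medians of 224 bp at the start and -217.5 bp at the end. The pairs of the replicates are not over the same members.

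Scores of the members in both replicates ranked partly alike. Over the 402 members, scores in the replicate lists were correlated with a Spearman rho of 0.59. The series-level score had a rho of 0.91 with the score of replicate 2 and 0.74 with that of replicate 1. Member width had a rho of 0.49 with the replicate 2 score and 0.38 with the replicate 1 score. These run across regions of the same libraries, and the series-level score is not independent of the replicates.

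The 10 highest-scoring compact regions in both lists were spread over the interior, each matched by 1 region in each replicate. The first was 2L:18441686-18444129, 2444 bp wide, with a series-level score of 1.86 and scores of 1.56 in replicate 1 and 2.10 in replicate 2. Both replicates gave almost its whole extent, 98.6% and 98.2%. It stood at an edge of a bare stretch, with 56.3 kb free of any series-level region on its telomere side and the next region 763 bp away on the other.

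The second, 2L:10200072-10203964, also scored 1.86, with 1.73 in replicate 1 and 2.18 in replicate 2. Replicate 1 covered 68.2% of it and replicate 2 99.6%. Next was 2L:5070117-5072753, which scored 1.70, with 1.76 and 1.69 in the replicates, which covered 99.3% and 95.1% of it. Replicate 1 thus marked part of the second region and nearly all of the next.

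The fourth, 2L:7825150-7829498, scored 1.68 and was the end of a run of 4 members, with 17.2 kb free on its centromere side. The fifth, 2L:13391280-13396065, scored 1.57, with 1.79 and 1.77 in the replicates, and lay in a run of 10 members described below. The sixth, 2L:14490005-14494016, scored 1.56, with 1.57 and 1.62 in the replicates, which covered 98.6% and 98.7% of it. The sixth lay just before the window in which replicate 1 had a single region.

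The last 4 scored between 1.36 and 1.53 in the series-level list. They were 2L:16726192-16728696 in a run of 7 members, 2L:6657587-6661297 in a run of 3, and 2L:10407504-10411643 and 2L:12170958-12174419 in runs of 2. Replicate 1 covered 98.0%, 67.2%, 69.9% and 91.9% of them, and replicate 2 97.4%, 100.0%, 71.7% and 99.4%. Of the 10, only the first and the sixth had no other member within 2 kb, and the region 763 bp from the first was a wide one.

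High scores also occurred in narrow regions that neither replicate held. The member with the highest score of all, 2L:10946938-10947938, scored 2.34 and was 1001 bp wide. The next were 2L:20192559-20193641 at 1.29, 2L:15682775-15683775 at 0.910, 2L:15692620-15693731 at 0.838 and 2L:6991040-6992129 at 0.833. All 5 were between 1001 and 1112 bp wide, narrower than any region of the replicate lists, and each was at least 5.44 kb from the nearest series-level region on either side. By the limit of 2 kb, none of these 5 had another member nearby, and 8 of the 10 highest-scoring members in both lists had one. Among all 2107 members, 811, or 38.5%, had none. These included 370 of the 749 members in neither list and 100 of the 402 in both. Whether the named regions differed from these shares was not tested.

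Regions in 1 replicate alone reached lower scores. The highest under replicate 1 alone were 2L:20900723-20902279, 2L:19726663-19730363 and 2L:9582829-9584129, scoring 0.676, 0.590 and 0.561 in the series-level list and 0.993, 0.868 and 0.599 in replicate 1. The highest under replicate 2 alone were 2L:3012178-3015640, 2L:10389801-10392586 and 2L:6092093-6095988, scoring 0.732, 0.731 and 0.724, and 0.962, 0.988 and 1.04 in replicate 2. The replicate covered between 82.7% and 98.3% of each of the 6, so their support was not a matter of touching edges.

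Gaps between neighbouring compact regions had a wide range. The median gap between consecutive members was 3076 bp, the mean was 7451 bp and the quartiles were 964 and 9249 bp. Of 2106 gaps, 846, or 40.2%, were at or under 2 kb and 70 were at or under 100 bp. A run was defined as consecutive members with gaps of 2 kb or less. Of the members, 811 stood alone, 516 were in pairs and 780, or 37.0% (95% Wilson interval 35.0 to 39.1%), were in 192 runs of 3 or more. These runs spanned 10.6 kb at the median and 36.4 kb at most.

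**Figure D5:**
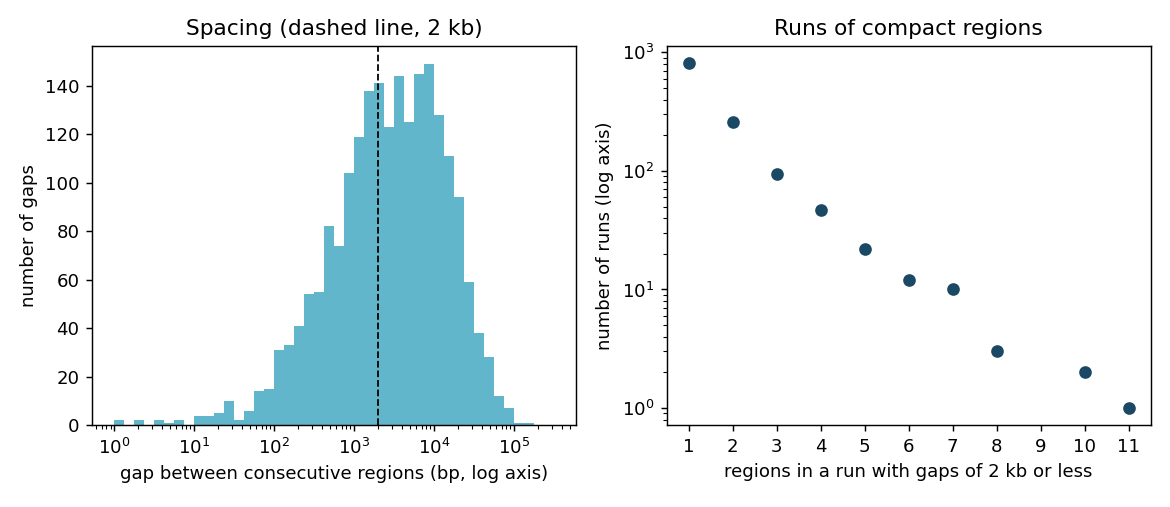
Left, number of gaps between consecutive compact regions of the 2L interior by gap length (bp, log axis), with the 2 kb limit of a run dashed. Right, number of runs (log axis) by the number of regions they hold. Gaps have a median of 3076 bp, and runs range from 811 single regions to 1 run of 11.

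Members of runs were supported more often than lone members, and were wider. Both replicates overlapped 26.5% of members in runs of 3 or more (95% Wilson interval 23.6 to 29.7%), 18.4% of those in pairs and 12.3% of lone members (10.2 to 14.8%). Neither overlapped 24.6%, 36.2% and 45.6% in the same order. The median width was 1937, 1733 and 1455 bp, and the median score 0.456, 0.454 and 0.449, so support moved with width here too, and its part in the result was not tested. Of the 192 runs, 67 held no region of replicate 1 and 9 held no region of replicate 2. Every member was in both lists in 3 runs and in neither in 8 runs. No run was spanned by a single region of either replicate.

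The run with most members lay in the densest window. It held 11 members in 33.6 kb, at 2L:18948780-18982378, and members filled 72.9% of it. Replicate 2 overlapped 10 of them and covered 57.4% of the run with 9 regions. Replicate 1 had 1 region there, on the highest-scoring member, 2L:18966424-18970522, with a series-level score of 0.764 and scores of 0.913 and 0.929 in replicates 1 and 2.

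Another run of 10 members, 2L:13363815-13400247, was high-scoring and supported nearly throughout. Its members had a median score of 0.904, against 0.454 over all members, and filled 86.4% of 36.4 kb. Both replicates overlapped 7 of the 10, with 7 regions of replicate 1 and 9 of replicate 2. Those 7 scored from 0.824 to 1.57 in the series-level list, from 0.729 to 1.79 in replicate 1 and from 1.10 to 1.77 in replicate 2. The gaps after members of this run ranged from 15 to 1552 bp, and 1 member in neither list, 2L:13367813-13368955, lay among the 7. Replicate 1 covered 50.2% of the run and replicate 2 81.7%. The 2 members at the centromere-side end were in replicate 2 alone, at 0.427 and 0.280 in the series-level list.

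The other named runs were less covered by replicate 1. The second run of 10 members, 2L:5943131-5975877, had a median score of 0.422, with 3 members in both lists, 5 in replicate 2 alone, 1 in replicate 1 alone and 1 in neither. The run 2L:19098033-19118430 held 8 members with a median score of 0.451, none in both lists, 5 in replicate 2 alone and 1 in replicate 1 alone. The run 2L:1103461-1131813 held 8 members, 3 in both lists and 5 in replicate 2 alone, with scores up to 0.997. A further run of 8, 2L:6030669-6059092, was longer, with 3 members in both lists, 4 in replicate 2 alone, 1 in neither and scores up to 1.21, and members filled 85.2% of it. Replicate 1 covered 22.7%, 6.60%, 24.8% and 26.0% of these 4 runs and replicate 2 56.3%, 46.7%, 76.1% and 74.5%.

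Support also varied by place, in windows singled out after their values were seen. The share of a window's members in both replicates was 19.1% at the median window and 33.3% at most, in 2L:12000001-12500000, where 13 of 39 members were in both. It was 0% in 2L:14500001-15000000, where 36 members were listed, 24 of them in neither replicate, 11 in replicate 2 alone and 1 in replicate 1 alone. That window also had the lowest median width, 1287.5 bp. The window before it, 2L:14000001-14500000, had 5 of 59 members in both and 30 in neither. Across windows, the share in both had a Spearman rho of 0.55 with median width, 0.34 with median score and -0.03 with the number of members.

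Members near wide regions were better supported than those far from them. Within 5 kb of 1 of the 122 wide regions lay 235 members, or 11.2%, and 28.9% of these overlapped both replicates (95% Wilson interval 23.5 to 35.0%). Of the 1080 members more than 50 kb from a wide region, 15.6% did (13.6 to 17.9%), and 41.5% overlapped neither, against 17.9% of the near ones. The near members were wider, with medians of 2124 and 1536 bp, and scored 0.464 against 0.448 at the median. The part of width in this difference was not tested.

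The same rule on the other large arms gave values on both sides of 2L, except for the median score, which was lowest on 2L. Members per Mb were 105 on 2L, 95.7 on X, 121 on 3L, 130 on 3R and 146 on 2R. Relative to its mean, the number per window varied by 0.308 on 2L, close to 0.315 on 3L and 0.348 on X, and by 0.226 on 3R and 0.170 on 2R (SD divided by mean). The share overlapping both replicates was 19.1% on 2L and between 18.5% and 19.1% on the other 4, and that overlapping neither was 35.5% and between 32.6% and 37.3%. The share of members in runs of 3 or more was 37.0% on 2L, 35.7% on X, 43.9% on 3L, 44.3% on 3R and 49.5% on 2R. Median widths lay between 1662 and 1727 bp. The median score was 0.454 on 2L, from 0.455 to 0.459 on the other autosomal arms and 0.537 on X. These differences between arms were not tested, since no replicate of an arm exists within a list.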

How the data were processed

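ChIP and input libraries came from 14 to 16 h Oregon-R embryos. The submitters' processing notes name Bowtie 0.12.7, and the genome build is FlyBase r5, per the file headers. Region caller, threshold and the way replicates were combined: not given in the sources used here. In each deposited list the authors give a score per region, which was used as a rank or a description within 1 list. Depth is unknown, so no counting error of reads is given.

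Everything else was computed from the 3 lists with SciPy 1.17.1, pandas 2.3.3, NumPy 2.4.6 and Matplotlib 3.10.9 under Python 3.11.15. Coordinates are 1-based. Replicate regions of any width on 2L were matched to members by a shared base, and the longest overlap gave the score. Shares have 95% Wilson intervals, which cover counting of regions only. Windows of 500 kb started at the interior's telomere-side limit, and regions were assigned by midpoint. No test was run: input samples, the only other group, were not analysed here as lists, and the members were chosen from these data.

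Named regions followed a rule: the 10 highest-scoring members in both replicates, the 5 highest in neither, the 3 highest in each replicate alone, the 3 widest and the 3 just over the limit, the 3 fullest and 3 emptiest windows, the 5 runs with most members (of 3 tied at 8 members, the 2 shorter; the other is given too) and the 3 longest bare stretches. The members and lists were chosen with earlier results of these data known. The alternatives are an overlap of 50%, members at or above the median score, merging at 500 bp, other width limits, windows and gaps, and each replicate alone. The overlap, run, merge and window functions were tested on 1000 simulated regions, and all 9 checks returned the values the data were made with.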

Additional observations from a re-analysis of the deposited data

How the results depend on the processing

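Of 25 recomputed values, 14 stayed close to the reported one and 11 moved. Only the 5 recomputed rho values could have changed sign, and they did not. Close means within 1.5 times for a count, within the Wilson interval for a share, within the SD over windows for the density and within 0.1 for a rho. Members numbered 1054 at or above the median score, by construction, and between 1637 and 2405 under the other 4 alternatives. The share in both replicates was 14.8% with at least 50% of the member covered and 32.4% at or above the median score, and 22.5% to 61.0% when 1 replicate was left out, which then counts overlap with the other alone. The share in neither was 37.7%, 30.6% and 39.0% to 77.5% in the same order. The window rho between replicates was 0.76 in 250 kb windows. Runs of 3 or more numbered 112 with a gap of 1 kb, 254 with 5 kb and 227 with wide regions included. The score rho over members in both lists was 0.66 with 50% covered. No paired analysis was possible because no list of an input sample was analysed here. Unknown depth and 2 replicates limit what these lists can show.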
